A study of Saccharomyces pastorianus with 12 samples.

Results

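The 10 gene copies of GDH1, GDH2, GDH3, GLT1 and GLN1, the enzymes that join ammonium to carbon skeletons and release it again, were followed in the lager strains SpIB1 and SpIB2. Both belong to Saccharomyces pastorianus, the hybrid yeast of cold beer fermentation. A copy was counted as a member when its name in the count tables was one of these 5 symbols, alone or with a copy number behind it. Each symbol had 2 copies, numbered 1 and 2 in the tables, and the 10 members stood among 11312 gene copies listed. All 10 were readable and all 10 entered the test. GDH2_2 had 0 reads in SpIB1 and entered it only through its SpIB2 reads. Nothing in the tables ties a copy to either parent of the hybrid, and no coordinates or sequences were used.

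Per the labels, the fermentations ran in brewing wort at 16 °C over 5 days, and cells were sampled on day 2 and day 5. This gave 4 groups (SpIB1 on day 2, SpIB1 on day 5, SpIB2 on day 2 and SpIB2 on day 5) with 3 polyA RNA libraries each, 12 in all. The strain is the only difference the labels give within a day, and neither strain is described as carrying an engineered allele. Since no label states that replicates were separate fermentations, the p-values cover only the spread among these libraries, and that spread may be technical.

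Yeast takes up ammonium and fixes it mainly through the NADP-linked glutamate dehydrogenases Gdh1 and Gdh3, which make glutamate from 2-oxoglutarate, and through the glutamine synthetase Gln1, which adds a further ammonium to glutamate. The glutamate synthase Glt1 turns glutamine and 2-oxoglutarate back into glutamate, and the NAD-linked glutamate dehydrogenase Gdh2 runs in the direction of breakdown, releasing ammonium and 2-oxoglutarate. In Saccharomyces cerevisiae, Gdh1 is known as the main NADP enzyme of cells growing on sugar and Gdh3 as its paralogue of non-fermenting and late-phase cells, and this family of genes is a textbook target of nitrogen regulation. GDH1 and GDH3 are close paralogues, and the copies of a symbol are close to each other, so reads can be shared between them and values of single copies are uncertain.

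Library totals ran from 5133175 to 7922547 reads. On these totals a floor of 3 reads corresponded to 0.379 to 0.584 CPM, the unit of reads set to one library size. This floor was taken before the TMM scaling, whereas the levels given below are CPM after it. The factors of the TMM scaling, which corrects for a few genes taking many reads, ran from 0.509 in SpIB2 day 5 replicate 1 to 1.35 in SpIB1 on day 5. A pair of SpIB2 libraries stood apart from their replicates across all copies. Day 2 replicate 3 correlated with its replicates at a Pearson r of 0.897 and 0.906, against 0.951 between the other two, and day 5 replicate 1 at 0.922 and 0.914, against 0.970. In SpIB1 the r between replicates was 0.966 to 0.988. Results that rest on these libraries are given with and without them.

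**Figure D1:**
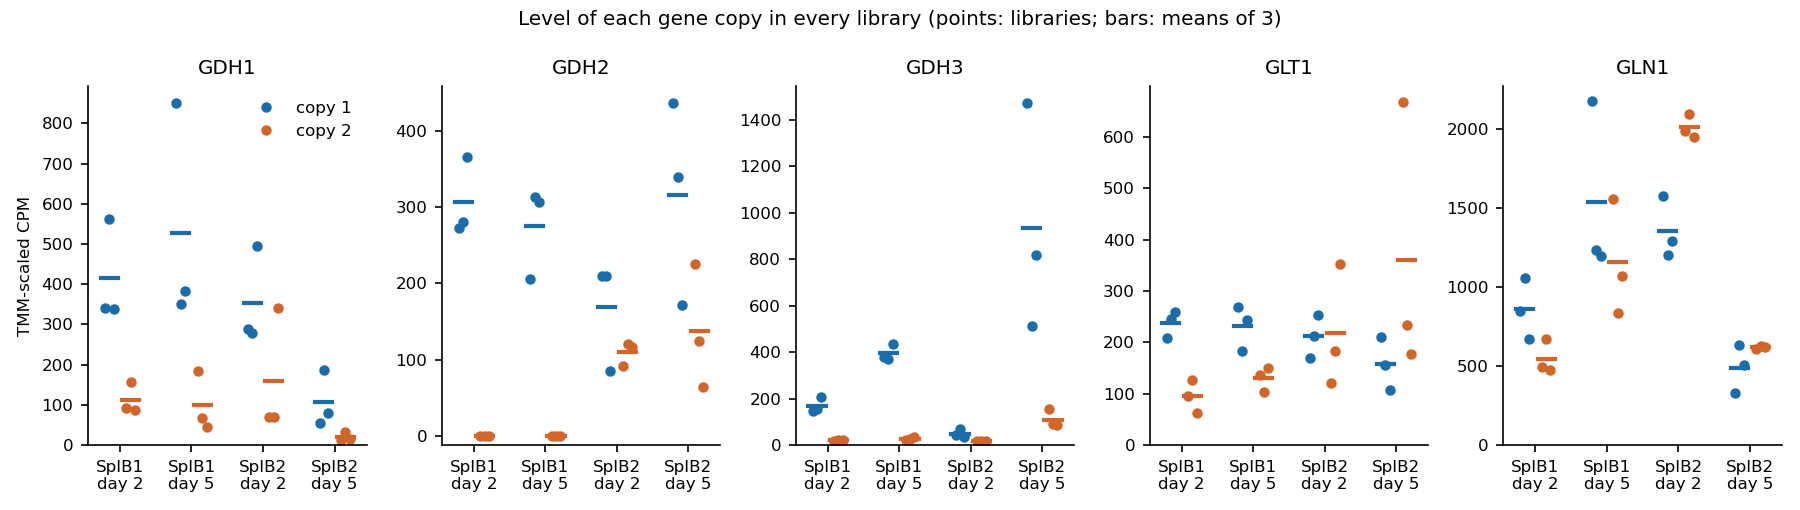
TMM-scaled CPM (vertical axis, linear, own scale for each gene) of copy 1 (blue) and copy 2 (orange) of each gene in the 4 groups; each point is a library and each bar the mean of 3 libraries. GDH3_1 lies between 33.1 and 67.5 CPM in SpIB2 on day 2 and between 513 and 1472 CPM on day 5, while GLN1_1 and both GDH1 copies are lowest in SpIB2 on day 5.

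On day 2 the share of member copies called between the strains was close to that of all copies. SpIB2 had more GLN1_2 (3.68-fold) and GDH2_2, and less GDH3_1 (3.57-fold). This made 2 member copies higher and 1 lower at an adjusted p under 0.05, 3 of 10, where 35.3 percent of all 10659 copies tested were called (19.3 percent higher and 16.0 percent lower). GDH2_2 had 0 reads in SpIB1 and entered the test only through SpIB2, so its call between the strains was fixed on both days. By day 5 both copies of GDH1 and of GLN1 were lower in SpIB2 and both copies of GDH3 were higher, with GDH2_2 and GLT1_2 also higher. That is 4 higher and 4 lower, 8 of 10, where 56.4 percent of all copies were called (29.9 percent higher and 26.5 percent lower). The count of 8 did not hold with single libraries left out. Without SpIB1 day 5 replicate 1 the calls of GDH1_2, GDH3_1, GLT1_2 and GLN1_2 all ended.

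Between the days in SpIB2, the paralogous NADP enzymes moved in opposite directions: both GDH3 copies rose (19.7-fold and 6.19-fold) and both GDH1 copies fell (3.30-fold and 8.17-fold), as did both GLN1 copies (2.77-fold and 3.25-fold). These 2 higher and 4 lower calls, 6 of 10, stand against 45.3 percent of all copies (21.8 percent higher and 23.5 percent lower). In SpIB1, 0 of 10 copies were called between the days by edgeR, against 3.47 percent of all copies (0.863 percent higher and 2.61 percent lower). At an unadjusted p under 0.05 there were 3 (GDH3_1, GLN1_1 and GLN1_2, each with a higher level on day 5), and DESeq2 called 2 (GDH3_1 and GLN1_2). The change from day 2 to day 5 itself differed between the strains in the same 6 copies that changed in SpIB2. Of all copies, 26.4 percent did so (14.6 percent with a more positive change in SpIB2 and 11.9 percent with a more negative one). GDH2_2, with 0 reads in SpIB1, is among the 10 but could be called neither between the days in SpIB1 nor for this difference. Messenger RNA was measured in bulk, so fewer cells with a transcript and less of it per cell cannot be told apart. The comparisons share groups, so they are not independent of each other.

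**Figure D2:**
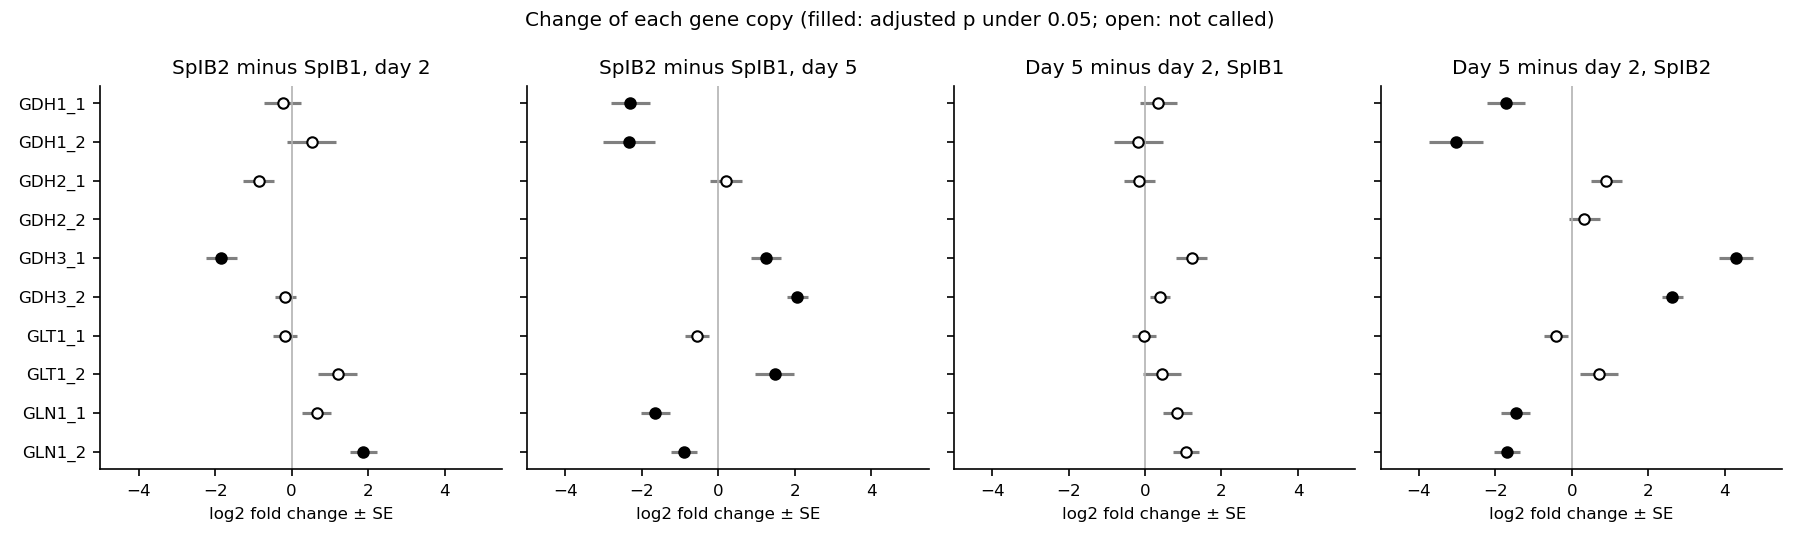
Log2 fold change (horizontal axis, ± SE) of each gene copy in 4 comparisons, with filled points for an adjusted p under 0.05 and open points otherwise; GDH2_2 is left out where SpIB1 has 0 reads. The GDH1, GDH3 and GLN1 copies lie away from 0 in SpIB2 between the days (-3.03 to 4.30) and on day 5 between the strains (-2.33 to 2.06).

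GDH1_1 was measured at 342, 563 and 339 CPM in the SpIB1 libraries of day 2 and at 851, 350 and 384 CPM in those of day 5. In SpIB2 it stood at 287, 278 and 496 CPM on day 2 and at 53.9, 186 and 80.8 CPM on day 5. The 3 SpIB2 day 5 libraries lay below the other 9, which overlapped among their groups. GDH1_1 thus fell in SpIB2 from day 2 to day 5 (log2 fold change -1.72 ± 0.50 SE, adjusted p = 0.0134) and was lower than in SpIB1 on day 5 (-2.30 ± 0.51, adjusted p = 0.00171). On day 2 the strains did not differ beyond their spread (-0.23 ± 0.48, adjusted p = 0.741), nor did the days in SpIB1 (0.35 ± 0.48, adjusted p = 0.768).

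GDH1_2 followed the first copy at a lower count. Its SpIB1 libraries held 91.2, 156 and 85.9 CPM on day 2 and 184, 67.1 and 44.9 CPM on day 5. In SpIB2 they held 69.7, 68.9 and 341 CPM on day 2 and 11.7, 32.5 and 14.1 CPM on day 5. The 3 SpIB2 day 5 libraries were again the lowest of the 12, and SpIB2 day 2 replicate 3 was the highest. GDH1_2 fell in SpIB2 (-3.03 ± 0.70, adjusted p = 0.00404) and was lower than in SpIB1 on day 5 (-2.33 ± 0.68, adjusted p = 0.0100). Without SpIB2 day 2 replicate 3 the fall was -1.82.

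Summed over both copies, GDH1 averaged 531 ± 171 CPM (SD, n = 3) in SpIB1 on day 2 and 636 ± 362 on day 5, and 521 ± 287 in SpIB2 on day 2 and 124 ± 82.8 on day 5. The sum fell 4.21-fold in SpIB2 (log2 -2.07 ± 0.55 SE, adjusted p = 0.00819) and was 5.14-fold lower than in SpIB1 on day 5 (-2.36 ± 0.55, adjusted p = 0.00292). Without both libraries that stood apart, the fall in SpIB2 was -1.08 for GDH1_1 (adjusted p = 0.0839) and -1.20 for the sum (adjusted p = 0.0636), neither of which passed, and -1.57 for GDH1_2 (adjusted p = 0.0411). The strain difference on day 5 was then -1.99, -2.08 and -2.04 for GDH1_1, GDH1_2 and the sum, and all 3 passed. SpIB2 day 5 replicate 2, the highest of its group, also moved these values: without it the fall in SpIB2 was -2.39, -3.63 and -2.76 and the day 5 difference -2.97, -2.93 and -3.05, in the same order. The day 5 call of GDH1_2 ended without SpIB1 day 5 replicate 1 (-1.55, adjusted p = 0.0685).

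The change of GDH1 between the days was more negative in SpIB2 than in SpIB1 by -2.07 ± 0.69 for GDH1_1 (adjusted p = 0.0408), -2.86 ± 0.93 for GDH1_2 (adjusted p = 0.0370) and -2.33 ± 0.75 for the sum (adjusted p = 0.0343). These 3 calls stood near the threshold. The call of GDH1_1 ended without any 1 of SpIB1 day 2 replicate 1 (-1.95), SpIB1 day 2 replicate 3 (-1.96), SpIB1 day 5 replicate 1 (-1.56) or SpIB2 day 2 replicate 1 (-2.20). It also ended without SpIB2 day 2 replicate 3 (-1.75), SpIB2 day 5 replicate 1 (-1.78) or SpIB2 day 5 replicate 3 (-1.90), and its value was -2.74 without SpIB2 day 5 replicate 2. GDH1_2 was no longer called without SpIB1 day 2 replicate 1 (-2.74) or 3 (-2.74), SpIB1 day 5 replicate 1 (-2.07) or 2 (-3.11), SpIB2 day 2 replicate 3 (-1.65) and SpIB2 day 5 replicate 1 (-2.64) or 3 (-2.67), and stood at -3.46 without SpIB2 day 5 replicate 2. The sum was no longer called without SpIB1 day 2 replicate 1 (-2.25) or 3 (-2.24), SpIB1 day 5 replicate 1 (-1.81), SpIB2 day 2 replicate 3 (-1.79) and SpIB2 day 5 replicate 1 (-2.01) or 3 (-2.16), and stood at -3.02 without SpIB2 day 5 replicate 2.

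GDH3, the paralogue of GDH1, moved the other way. GDH3_1 was measured at 148, 155 and 206 CPM in SpIB1 on day 2 and at 377, 369 and 437 CPM on day 5. The SpIB2 libraries held 42.0, 67.5 and 33.1 CPM on day 2 and 1472, 513 and 820 CPM on day 5. The 4 groups did not overlap: SpIB2 on day 2 was lowest, SpIB1 on day 2 next, SpIB1 on day 5 above it and SpIB2 on day 5 highest. GDH3_1 was lower in SpIB2 than in SpIB1 on day 2 (-1.84 ± 0.41, adjusted p = 0.00388) and higher on day 5 (1.25 ± 0.40, adjusted p = 0.0168). In SpIB2 it rose by 4.30 ± 0.45 on the log2 scale (adjusted p = 2.99e-05), and in SpIB1 the day 5 level was higher by 1.22 ± 0.40 without passing (adjusted p = 0.118).

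GDH3_2 gave 16.2, 22.0 and 21.2 CPM in SpIB1 on day 2 and 21.6, 24.1 and 32.8 CPM on day 5. In SpIB2 it gave 17.3, 17.6 and 18.0 CPM on day 2 and 154, 88.3 and 86.7 CPM on day 5. Only the 3 SpIB2 day 5 libraries stood apart from the rest, with every other library at 32.8 CPM or below. GDH3_2 rose in SpIB2 (2.63 ± 0.28, adjusted p = 3.14e-05) and was higher than in SpIB1 on day 5 (2.06 ± 0.27, adjusted p = 3.39e-05). On day 2 the strains did not differ beyond their spread (-0.17 ± 0.27, adjusted p = 0.657).

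The sum of both GDH3 copies averaged 191 ± 33.1 CPM in SpIB1 on day 2 and 426 ± 43.0 on day 5, and 66.0 ± 17.8 in SpIB2 on day 2 and 998 ± 469 on day 5. It rose 15.1-fold in SpIB2 (log2 3.92 ± 0.39 SE, adjusted p = 2.82e-05), and was 2.90-fold lower than in SpIB1 on day 2 (-1.53 ± 0.35, adjusted p = 0.00736) and 2.34-fold higher on day 5 (1.23 ± 0.35, adjusted p = 0.00932). In SpIB1 the sum was higher on day 5 by 1.16 ± 0.35 without passing (adjusted p = 0.0852). The change between the days was larger in SpIB2 by 3.08 ± 0.57 for GDH3_1 (adjusted p = 0.00323), 2.23 ± 0.38 for GDH3_2 (adjusted p = 0.00227) and 2.76 ± 0.50 for the sum (adjusted p = 0.00314). Without both libraries that stood apart, the rise in SpIB2 was 3.61, 2.33 and 3.34 for GDH3_1, GDH3_2 and the sum, and the difference of the changes was 2.37, 1.91 and 2.16, with all 6 values past the threshold.

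The higher GDH3_1 of SpIB2 on day 5 was less firm than its rise. The call ended without SpIB1 day 5 replicate 1 (1.17, adjusted p = 0.0582), SpIB1 day 5 replicate 2 (1.15, adjusted p = 0.0621) or SpIB2 day 5 replicate 1 (0.75, adjusted p = 0.0671), and held without both libraries that stood apart (0.75, adjusted p = 0.0350). It depended on the scaling: with plain library totals in place of TMM the difference was 0.35 for GDH3_1 (adjusted p = 0.371) and 0.42 for the sum (adjusted p = 0.222). That scaling shifted the median of all copies by -0.75 on day 5 between the strains, -0.04 on day 2, 0.27 between the days in SpIB1, -0.44 between the days in SpIB2 and -0.71 for the difference of the changes. GDH3_2 kept its call on day 5 under every alternative run.

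The ratio of GDH3 to GDH1 reads within a library does not depend on the scaling between libraries. It was 0.379, 0.246 and 0.536 in SpIB1 on day 2 and 0.385, 0.943 and 1.09 on day 5. In SpIB2 it was 0.166, 0.245 and 0.0610 on day 2 and 24.8, 2.75 and 9.55 on day 5. The lowest SpIB2 day 5 library lay above all 9 other libraries, and the 3 SpIB2 day 2 libraries lay below all 6 of SpIB1. That second separation was nearly a tie at its closest, with SpIB2 day 2 replicate 2 at 0.245 and SpIB1 day 2 replicate 2 at 0.246. Gene lengths were not used, so the ratio is read between groups only and does not say which of the genes had more transcripts.

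**Figure D3:**
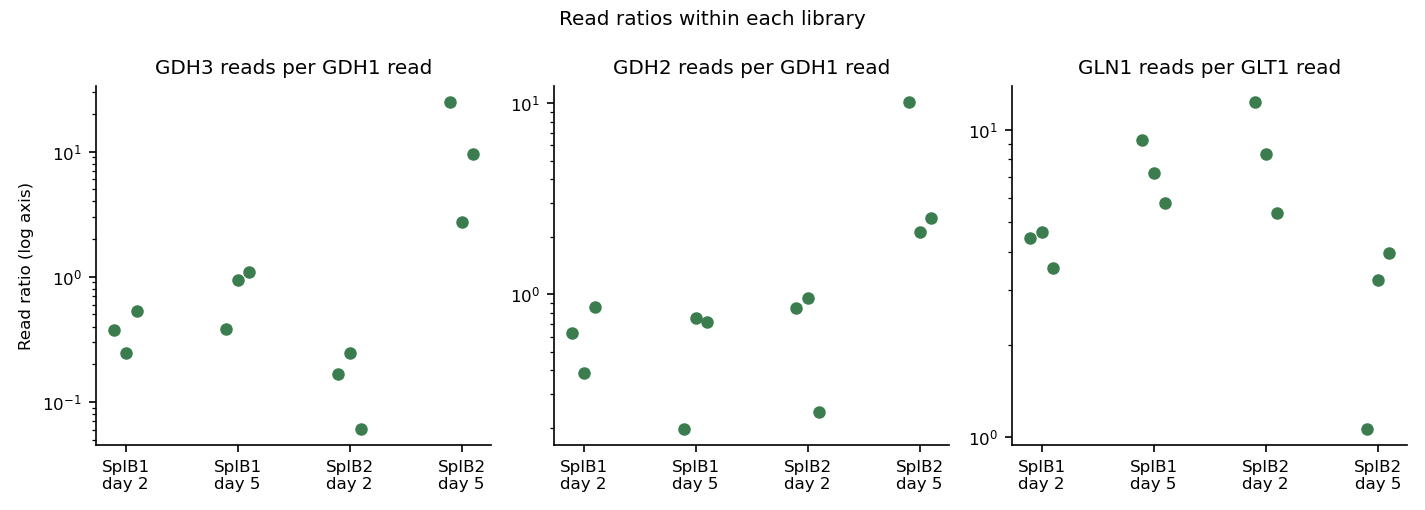
Reads of one gene per read of another within each library (vertical axes, log scale), both copies summed, in the 4 groups; each point is a library. The GDH3 to GDH1 ratio in SpIB2 on day 5 runs from 2.75 to 24.8 against at most 1.09 in the other groups, and the GDH2 to GDH1 ratio there runs from 2.12 to 10.1 against at most 0.951.

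GDH2, the breakdown enzyme, differed between the strains in which copies were read at all. GDH2_2 had 0 reads in each of the 6 SpIB1 libraries, while SpIB2 held 92.2, 120 and 116 CPM on day 2 and 225, 125 and 64.3 CPM on day 5. Over the groups these were 1955 reads on day 2 and 1523 on day 5. With the SpIB1 group set to a floor of 3 reads in total, GDH2_2 was at least 759-fold higher in SpIB2 on day 2. On day 5 it was at least 1138-fold higher. These bounds cover counting error only. The copy entered the test only through its SpIB2 reads, so its call between the strains adds nothing to them. Of the 10659 tested copies, 174 had 0 reads in all 6 SpIB1 libraries. Whether SpIB1 lacks this copy in its genome or does not express it cannot be told apart from these counts.

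GDH2_1 was read in both strains. It was measured at 273, 280 and 366 CPM in SpIB1 on day 2 and at 205, 313 and 307 CPM on day 5. SpIB2 had 210, 210 and 85.4 CPM on day 2 and 437, 339 and 172 CPM on day 5. The SpIB2 day 2 libraries lay below those of SpIB1, without a call (-0.86 ± 0.41, adjusted p = 0.116), and the day groups of SpIB2 overlapped (0.91 ± 0.41, adjusted p = 0.0850). The latter passed in the DESeq2 fit (0.98, adjusted p = 0.0352) and without SpIB2 day 5 replicate 3 (1.20, adjusted p = 0.0300), and without both libraries that stood apart it was 0.29 (adjusted p = 0.522).

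Counted over both copies, GDH2 averaged 309 ± 51.1 CPM in SpIB1 on day 2, 279 ± 60.6 in SpIB1 on day 5, 281 ± 67.3 in SpIB2 on day 2 and 436 ± 194 in SpIB2 on day 5. The sum was not called in any of the 5 comparisons, its log2 differences being -0.14 ± 0.35 between the strains on day 2 (adjusted p = 0.795), 0.65 ± 0.35 on day 5 (adjusted p = 0.136), -0.15 ± 0.35 between the days in SpIB1 (adjusted p = 0.870) and 0.63 ± 0.35 in SpIB2 (adjusted p = 0.156). Without SpIB2 day 5 replicate 3, the lowest of its group, the sum passed on day 5 between the strains (0.95, adjusted p = 0.0248) and between the days in SpIB2 (0.94, adjusted p = 0.0312). GDH2 reads per GDH1 read were 0.629, 0.389 and 0.862 in SpIB1 on day 2 and 0.198, 0.752 and 0.715 on day 5. In SpIB2 they were 0.845, 0.951 and 0.241 on day 2 and 10.1, 2.12 and 2.49 on day 5, so only the SpIB2 day 5 libraries stood above 1.

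GLN1, the glutamine synthetase, was higher in SpIB2 early and lower late. GLN1_2 was measured at 497, 671 and 475 CPM in SpIB1 on day 2 and at 1561, 838 and 1073 CPM on day 5. In SpIB2 it was at 1991, 2097 and 1952 CPM on day 2 and at 607, 630 and 620 CPM on day 5. The SpIB2 libraries of day 2 lay above all 9 others, and those of day 5 overlapped only with SpIB1 on day 2. GLN1_2 was higher in SpIB2 than in SpIB1 on day 2 (1.88 ± 0.34, adjusted p = 0.00108), fell in SpIB2 to day 5 (-1.70 ± 0.34, adjusted p = 0.00173) and was then lower than in SpIB1 (-0.90 ± 0.34, adjusted p = 0.0331). The day 5 call ended without SpIB1 day 5 replicate 1 (-0.67, adjusted p = 0.130), SpIB1 day 5 replicate 3 (-0.99, adjusted p = 0.0508), SpIB2 day 5 replicate 2 (-0.92, adjusted p = 0.0631) or SpIB2 day 5 replicate 3 (-0.90, adjusted p = 0.0634). It also ended in a fit of only the 6 libraries compared (-0.94, adjusted p = 0.0772).

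GLN1_1 was at 849, 1060 and 672 CPM in SpIB1 on day 2 and at 2182, 1234 and 1196 CPM on day 5. The libraries of SpIB2 gave 1575, 1205 and 1294 CPM on day 2 and 330, 636 and 505 CPM on day 5. The SpIB2 day 5 libraries were the lowest of the 12, and the other groups differed without a call, by 0.66 ± 0.38 between the strains on day 2 (adjusted p = 0.188) and by 0.84 ± 0.38 between the days in SpIB1 (adjusted p = 0.252). GLN1_1 fell in SpIB2 (-1.47 ± 0.38, adjusted p = 0.00785) and was lower than in SpIB1 on day 5 (-1.65 ± 0.39, adjusted p = 0.00252).

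The sum of both GLN1 copies averaged 1422 ± 305 CPM in SpIB1 on day 2 and 2733 ± 939 on day 5, and 3413 ± 163 in SpIB2 on day 2 and 1076 ± 194 on day 5. It fell 3.17-fold in SpIB2 (log2 -1.67 ± 0.34 SE, adjusted p = 0.00212), while the SpIB1 libraries of day 5 all lay above those of day 2 without a call (0.94 ± 0.34, adjusted p = 0.141). It was 2.40-fold higher in SpIB2 than in SpIB1 on day 2 (1.26 ± 0.34, adjusted p = 0.0157) and 2.54-fold lower on day 5 (-1.35 ± 0.34, adjusted p = 0.00484). The day 2 call ended without SpIB1 day 2 replicate 1 (1.20, adjusted p = 0.0751), SpIB1 day 2 replicate 3 (1.11, adjusted p = 0.0681) or SpIB2 day 2 replicate 1 (1.22, adjusted p = 0.0520).

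The day change of GLN1 was more negative in SpIB2 by -2.31 ± 0.54 for GLN1_1 (adjusted p = 0.00968), -2.78 ± 0.48 for GLN1_2 (adjusted p = 0.00232) and -2.61 ± 0.48 for the sum (adjusted p = 0.00335). Without both libraries that stood apart these were -2.13, -2.80 and -2.53, and the falls in SpIB2 -1.28, -1.71 and -1.56, all past the threshold. Under that same choice the higher day 5 levels of SpIB1 passed for GLN1_2 (1.10, adjusted p = 0.0176) and for the sum (0.97, adjusted p = 0.0333), as did those of GDH3_1 (1.23, adjusted p = 0.00658) and of the GDH3 sum (1.18, adjusted p = 0.00481).

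GLT1, the glutamate synthase, had no call in its sum, which averaged 336 ± 37.1 CPM in SpIB1 on day 2, 367 ± 67.3 in SpIB1 on day 5, 436 ± 164 in SpIB2 on day 2 and 494 ± 287 in SpIB2 on day 5. The log2 differences of the sum over the 5 comparisons ran from 0.05 to 0.43. GLT1_1 was at 208, 245 and 260 CPM in SpIB1 on day 2 and at 269, 184 and 243 CPM on day 5. In SpIB2 it was at 169, 213 and 253 CPM on day 2 and at 211, 156 and 107 CPM on day 5, so all 4 groups overlapped. It was not called in any comparison, the day 5 strain difference being -0.56 ± 0.31 (adjusted p = 0.146), although it passed without both libraries that stood apart (-0.82, adjusted p = 0.0158), without SpIB2 day 5 replicate 1 alone (-0.82, adjusted p = 0.0299) and with plain library totals (-1.38, adjusted p = 0.000785). Library totals also called its day change in SpIB2 (-0.94, adjusted p = 0.0146) and the difference of the day changes (-1.17, adjusted p = 0.0347).

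GLT1_2 was at 94.7, 127 and 63.3 CPM in SpIB1 on day 2 and at 135, 103 and 151 CPM on day 5. In SpIB2 it was at 121, 183 and 352 CPM on day 2 and at 669, 234 and 177 CPM on day 5. On day 2 the strain difference was not called (1.20 ± 0.50, adjusted p = 0.0765), but passed with DESeq2 (1.23, adjusted p = 0.0370) and with plain library totals (1.15, adjusted p = 0.0483). The day 5 libraries of SpIB2 lay above those of SpIB1 (1.47 ± 0.51, adjusted p = 0.0237). The call ended without SpIB1 day 5 replicate 1 (1.45, adjusted p = 0.0665), SpIB1 day 5 replicate 2 (1.28, adjusted p = 0.0948) or SpIB2 day 5 replicate 1 (0.66, adjusted p = 0.194), and without both libraries that stood apart (0.66, adjusted p = 0.0733). GLN1 reads per GLT1 read were 4.45, 4.65 and 3.55 in SpIB1 on day 2 and 9.25, 7.23 and 5.76 on day 5. They were 12.3, 8.34 and 5.37 in SpIB2 on day 2 and 1.07, 3.25 and 3.97 on day 5. The SpIB1 ratio was thus higher on day 5 than on day 2 in all libraries and the SpIB2 ratio lower.

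Summed over copies, 2 of the 5 genes were called on day 2 between the strains, where 28.0 percent of 6197 symbols were. On day 5 there were 3 against 55.1 percent, between the days in SpIB2 3 against 46.7 percent and for the difference of the changes 3 against 28.2 percent. Between the days in SpIB1 0 were called against 3.92 percent, with 2 at an unadjusted p under 0.05 and 2 by DESeq2 (GDH3 and GLN1). The 2 or 3 called symbols were in each case among GDH1, GDH3 and GLN1. Libraries of the groups compared did not overlap in 5 of 10 copies on day 2 between the strains, where 52.6 percent of all copies did not, and in 8 of 10 on day 5, against 62.0 percent. Between the days this held for 3 of 10 copies in SpIB1 against 38.9 percent and for 6 of 10 in SpIB2 against 47.4 percent. GDH2_2, with 0 reads in SpIB1, was bound to count between the strains and could not count between the SpIB1 days.

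**Figure D4:**
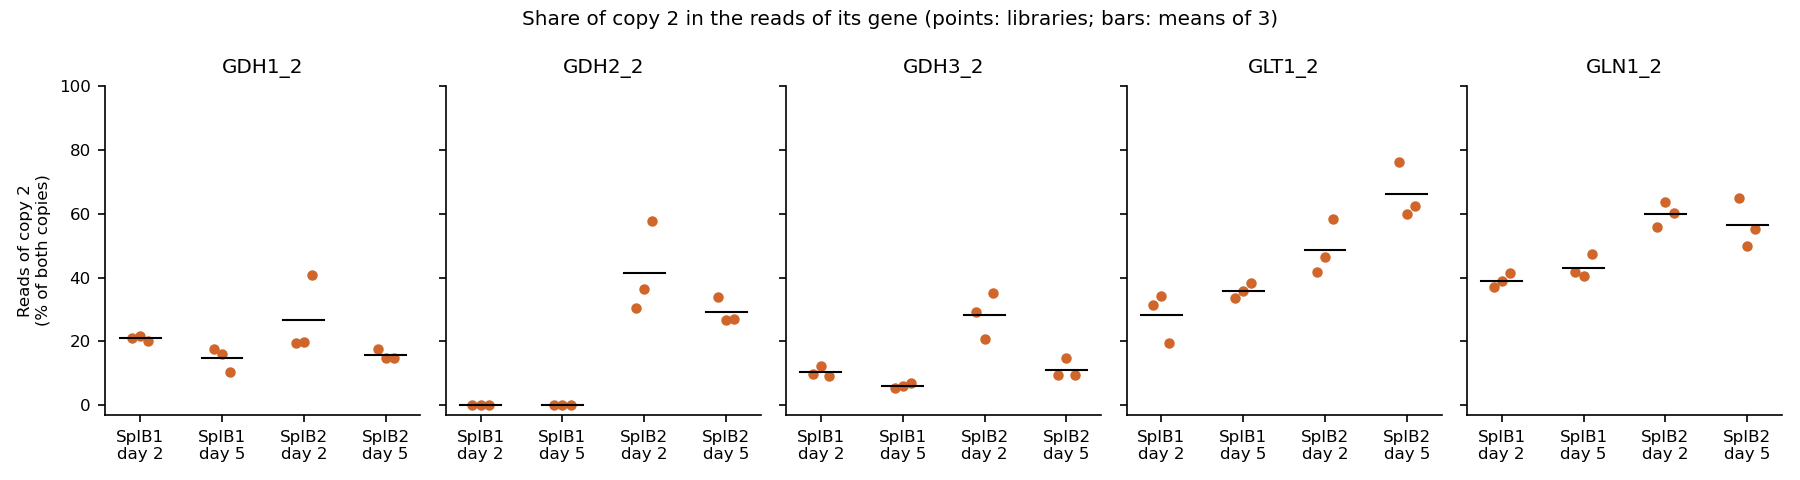
Share of copy 2 in the reads of both copies of its gene (vertical axis, percent) in each library of the 4 groups; points are libraries and bars the means of 3. GDH2_2 is at 0 percent in SpIB1 and between 26.9 and 57.7 percent in SpIB2, and GLN1_2 lies at or below 47.3 percent in SpIB1 and at or above 49.8 percent in SpIB2.

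For GLN1 and GLT1, copy 2 held a larger share of the gene's reads in the SpIB2 libraries than in the SpIB1 libraries of the same day. GLN1_2 held 39.0 ± 2.27 percent of the GLN1 reads in SpIB1 on day 2 and 43.1 ± 3.64 on day 5, and 59.8 ± 3.85 in SpIB2 on day 2 and 56.6 ± 7.62 on day 5. GLT1_2 held 28.3 ± 7.70 and 35.9 ± 2.43 percent in SpIB1 and 48.8 ± 8.51 and 66.1 ± 8.67 percent in SpIB2, on day 2 and day 5. A test of each copy against its symbol as a whole did not call either gene in any comparison, the nearest being GLT1_1 on day 5 (-0.74, adjusted p = 0.0991).

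GDH3_2 held 10.6 ± 1.67 percent of the GDH3 reads in SpIB1 on day 2 and 6.17 ± 0.79 percent on day 5. In SpIB2 it held 28.4 ± 7.31 percent on day 2 and 11.2 ± 2.99 percent on day 5. The SpIB2 day 2 libraries, from 20.7 to 35.2 percent, lay above all others. Against its symbol, GDH3_2 was higher in SpIB2 on day 2 (0.95, adjusted p = 0.00262) and fell from day 2 to day 5 in SpIB2 (-0.95, adjusted p = 0.00554). Both copies rose there, so it was the share of GDH3_2 that fell and not its level. With GDH2_2, that made 2 of 10 copies called against their symbol on day 2, where 7.01 percent of 8611 copies were. The GDH2_2 calls between the strains were fixed by its 0 reads in SpIB1. For the same reason it could not be called between the days in SpIB1 or for the difference of the changes. On day 5 there was 1 (GDH2_2) against 15.6 percent, between the days in SpIB2 1 (GDH3_2) against 3.76 percent, and 0 between the days in SpIB1 and for the difference of the changes, against 0.0116 and 1.08 percent. Of those 0, 1 (GDH3_2) stood at an unadjusted p under 0.05 in SpIB1 and 0 in the difference; no other tool was run for this test. The SpIB2 day call ended in a fit of only the 6 libraries compared (adjusted p = 0.108). GDH1_2 held 21.0 ± 0.76, 14.8 ± 3.84, 26.7 ± 12.2 and 15.8 ± 1.71 percent in the order SpIB1 day 2, SpIB1 day 5, SpIB2 day 2 and SpIB2 day 5, the highest value, 40.7 percent, coming from SpIB2 day 2 replicate 3.

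Around these enzymes, 5 lists with 58 symbols were followed: the enzymes that supply 2-oxoglutarate, the ammonium permeases, other enzymes that form or use glutamate, enzymes that use glutamine, and transcriptional regulators known from Saccharomyces cerevisiae. On day 5 the enzymes of 2-oxoglutarate supply had 9 of 19 tested copies higher in SpIB2 and 2 lower (median log2 difference 0.65, against 0.03 over all copies), where 29.9 percent of all copies were higher and 26.5 percent lower. The 11 of 19 called either way were close to the 56.4 percent of all copies. They were led by CIT2, the peroxisomal citrate synthase, at 2198 ± 418 CPM in SpIB2 and 465 ± 182 in SpIB1 (2.24 ± 0.40, adjusted p = 0.000372), and IDH2_2, a subunit of the NAD-linked isocitrate dehydrogenase (2.20 ± 0.29, adjusted p = 3.65e-05). This split turned with the scaling: with plain library totals it was 4 higher and 7 lower. CIT2 also rose between the days in SpIB2 (1.99 ± 0.40, adjusted p = 0.00171).

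Of the 6 copies of the ammonium permeases MEP1, MEP2 and MEP3, 4 were lower in SpIB2 on day 5 and 0 were higher (median -1.41), where 26.5 percent of all copies were lower and 29.9 percent higher. They included MEP3_2 (-1.61 ± 0.31, adjusted p = 0.000560) and MEP2_2, the high-affinity permease, at 271 ± 117 CPM against 804 ± 81.6 CPM in SpIB1 (-1.57 ± 0.36, adjusted p = 0.00231). The count was 2 without SpIB1 day 5 replicate 1, SpIB2 day 5 replicate 2 or SpIB2 day 5 replicate 3. Between the days in SpIB2, MEP1_1 rose (2.63 ± 0.50, adjusted p = 0.00131) and MEP3_2 fell (-1.29 ± 0.31, adjusted p = 0.00470), 1 of 6 in each direction, where 21.8 percent of all copies rose and 23.5 percent fell. MEP1_1 stood at 13.0, 14.0 and 48.6 CPM on day 2 and at 247, 107 and 118 CPM on day 5. Its rise was 3.54 without SpIB2 day 2 replicate 3, where the count of higher copies was 2.

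The enzymes that use glutamine were mostly lower in SpIB2 on day 5, with 19 of 30 copies lower and 3 higher (median -0.93), where 26.5 percent of all copies were lower and 29.9 percent higher. The higher copies included GFA1_2 and TRP3_2, which had 0 reads in SpIB1 on either day. As for GDH2_2, a missing copy and an unexpressed one cannot be told apart there. GUA1_1, the GMP synthetase, was at 23.4 ± 12.4 CPM against 173 ± 96.1 CPM in SpIB1 (-2.88 ± 0.59, adjusted p = 0.000944). Between the days in SpIB2, 14 of 30 copies fell and 2 rose (median -0.61, against -0.10 over all copies), where 23.5 percent of all copies fell. The 14 became 9 without SpIB2 day 5 replicate 3. The 2 became 0 without SpIB2 day 2 replicate 1 or SpIB2 day 2 replicate 3 and 1 without SpIB2 day 5 replicate 1. The day change was more negative in SpIB2 in 9 copies and more positive in 0, where 11.9 and 14.6 percent of all copies were. The 9 became 5 without SpIB1 day 2 replicate 1 and 4 without SpIB1 day 2 replicate 3 or SpIB1 day 5 replicate 1.

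Among the other enzymes of glutamate, 9 of 29 copies were higher and 9 lower in SpIB2 on day 5 (6 and 13 with plain library totals), close to the 29.9 and 26.5 percent of all copies. The higher copies included AAT1_2, with 0 reads in SpIB1 on either day, and AAT2_2, with 1 read there on day 2 and 4 on day 5. Between the days in SpIB2, 5 rose and 16 fell (median -0.82), where 21.8 percent of all copies rose and 23.5 percent fell. UGA1_2, the aminotransferase that makes glutamate from 4-aminobutyrate, fell from 1149 ± 86.2 to 43.7 ± 5.66 CPM in SpIB2 (-4.72 ± 0.37, adjusted p = 8.23e-06) and from 611 ± 146 to 52.3 ± 12.9 CPM in SpIB1 (-3.54 ± 0.35, adjusted p = 9.07e-05). In SpIB1 both UGA1 copies were the only 2 of 29 called, both lower on day 5, where 2.61 percent of all copies were. GSH1_1, the first enzyme of glutathione synthesis from glutamate, rose from 148 ± 28.2 to 861 ± 303 CPM in SpIB2 (2.54 ± 0.34, adjusted p = 0.000141). BAT1_1, the mitochondrial branched-chain aminotransferase, fell in SpIB2 (-1.96, adjusted p = 0.00174), and its day change differed between the strains by -2.57 ± 0.54 (adjusted p = 0.00665).

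Of the 29 copies of regulators, 7 were higher and 9 lower in SpIB2 on day 5 (3 and 14 with plain library totals, and 11 higher without SpIB2 day 5 replicate 2), again close to the 29.9 and 26.5 percent of all copies. GAT1_1, a GATA activator of nitrogen genes, was at 24.5 ± 14.2 CPM against 196 ± 72.6 CPM in SpIB1 (-3.01 ± 0.48, adjusted p = 0.000159). The copy GAT1_2, added after its values were seen, went the other way, at 1267, 276 and 298 CPM in SpIB2 and 291, 130 and 275 CPM in SpIB1 on day 5 (1.40 ± 0.53, adjusted p = 0.0367). That call ended without SpIB2 day 5 replicate 1, where the difference was 0.30 (adjusted p = 0.484). It also ended without SpIB1 day 5 replicate 1 (1.54), 2 (1.06) or 3 (1.50), with plain library totals (0.39) and in a fit of only the 6 libraries compared (1.35). HAP4_1, the activator subunit of the Hap complex, was at 4219, 1189 and 1064 CPM in SpIB2 on day 5 and at 451 CPM or below in the other 9 libraries. It was higher on day 5 than in SpIB1 (2.80 ± 0.54, adjusted p = 0.000641), and 1.85 without SpIB2 day 5 replicate 1. The other copy, HAP4_2, had 0 reads in SpIB1 on either day, so a missing copy and an unexpressed one cannot be told apart. In SpIB2 it averaged 304 ± 120 CPM on day 2 and stood at 8987, 1738 and 1747 CPM on day 5. Its rise between those days was 3.77 ± 0.73 (edgeR adjusted p = 0.00277), and 2.50 to 4.14 with each library left out. HAP5_1, of the same complex, was lower in SpIB2 on day 2 (-2.41 ± 0.28, edgeR adjusted p = 2.41e-05). On day 5 it stood at 5.98 ± 2.60 CPM in SpIB2 and 35.5 ± 6.57 in SpIB1. HAP5_2 then stood at 24.0, 24.7 and 41.8 CPM in SpIB2 and 13.5, 19.5 and 18.9 in SpIB1. HAP2 rose between the days in SpIB2 (1.75 ± 0.36, edgeR adjusted p = 0.00194). Between the days in SpIB2, 6 regulator copies rose and 3 fell, where 21.8 and 23.5 percent of all copies did. The 6 became 12 without SpIB2 day 5 replicate 2 and 10 without SpIB2 day 5 replicate 3. In SpIB1 between the days, 2 rose, both copies of DAL80, a repressor of nitrogen genes, where 0.863 percent of all copies rose. DAL80_1 went from 13.8 ± 9.64 to 79.2 ± 8.32 CPM (2.52 ± 0.39, adjusted p = 0.00301, and 3.30 without SpIB1 day 2 replicate 3). The call of DAL80_2 (1.50 ± 0.39, adjusted p = 0.0493) ended without any 1 of the 6 SpIB1 libraries, at adjusted p from 0.0576 to 0.223.

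On day 2 between the strains the lists were counted in the same way, where 19.3 percent of all copies were higher in SpIB2 and 16.0 percent lower. The higher copies again included AAT1_2, AAT2_2, GFA1_2, TRP3_2 and HAP4_2, with 0 or nearly 0 reads in SpIB1. For 2-oxoglutarate supply 8 of 19 were higher in SpIB2 and 3 lower, with 4, 5 and 4 higher without SpIB1 day 2 replicate 1, SpIB1 day 2 replicate 2 and SpIB2 day 2 replicate 2. For the other enzymes of glutamate 12 of 29 were higher and 1 lower, with 7 higher without SpIB1 day 2 replicate 1 or SpIB1 day 2 replicate 3. Of the enzymes that use glutamine 6 of 30 were higher and 2 lower, with 3 higher without SpIB1 day 2 replicate 1 and 4 lower without SpIB2 day 2 replicate 3. Of the regulators 5 of 29 were higher and 7 lower, with 3 higher without SpIB1 day 2 replicate 2, and of the permeases 0 of 6 were higher and 1 was lower, with 0 lower without SpIB1 day 2 replicate 1, SpIB1 day 2 replicate 2 or SpIB2 day 2 replicate 1 and 3 lower without SpIB2 day 2 replicate 3.

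**Figure D5:**
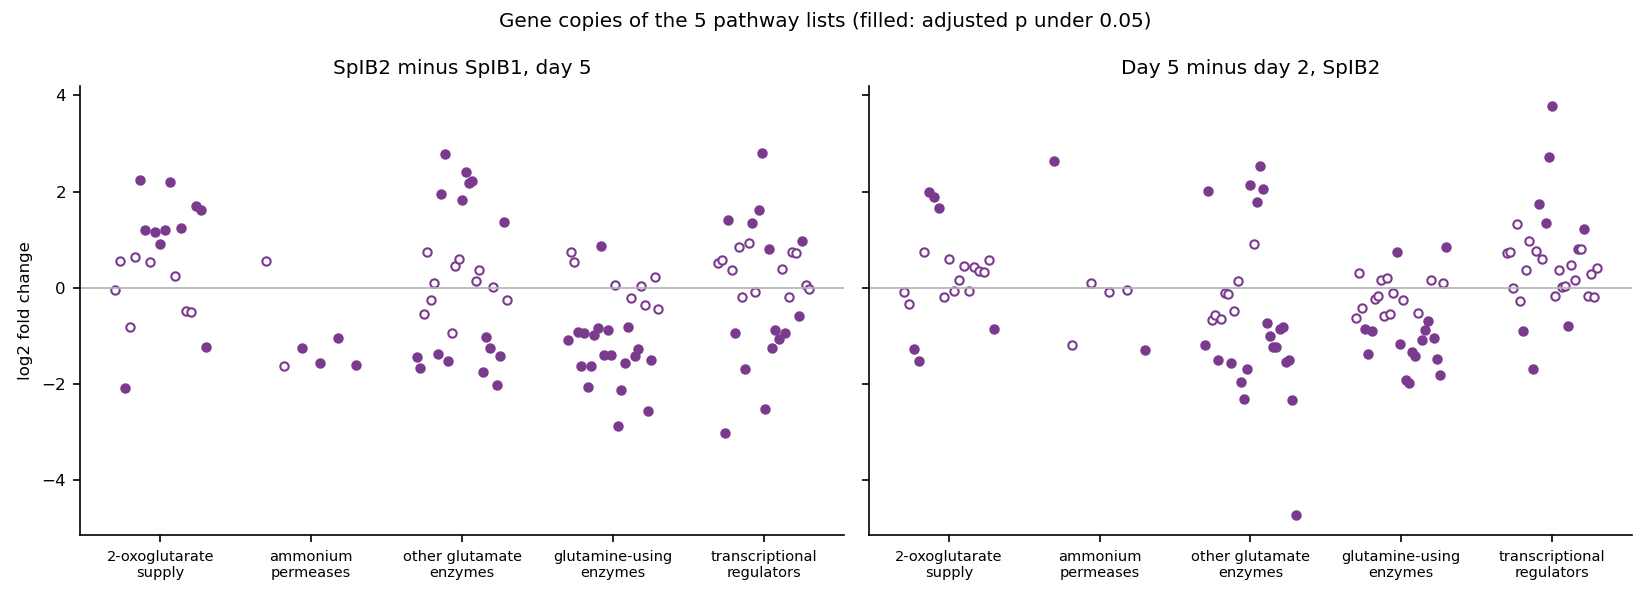
Log2 fold change (vertical axis) of every tested copy of the 5 lists between the strains on day 5 (left) and between the days in SpIB2 (right), filled for an adjusted p under 0.05; copies with 0 or nearly 0 reads in SpIB1 are not drawn on the left. Among the enzymes that use glutamine 19 of 30 copies are lower in SpIB2 on day 5 and 14 of 30 fell between the days.

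Over the 12 libraries, the level of each gene (both copies summed, log2 CPM) was set beside that of the other genes among 4615 symbols with a mean of at least 10 CPM. GDH1 was most like GCD2, a subunit of the translation factor eIF2B, RRP3, an RNA helicase of ribosome biogenesis, and RLI1, a ribosome recycling factor (Pearson r = 0.977, 0.969 and 0.966). GDH3 was most like VRP1, KRE9 and HVG1 (0.982, 0.980 and 0.978), and GLN1 most like RPS0A, a ribosomal protein, DCG1 and PHO13 (0.911, 0.908 and 0.906). GDH2 was most like DAP2, SEC21 and HER1 (0.930, 0.928 and 0.915), and GLT1 most like EHT1, COR1 and HOG1 (0.879, 0.878 and 0.848). The 12 points share 4 groups and their library scaling, and many genes differ between these groups, so these values describe a shared order of libraries only.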

How the data were processed

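Values started from the whole-number read counts that the authors deposited, 1 unnormalised table per library with a line for each gene copy. The submitters' processing notes list edgeR 3.34.0, HTSeq 0.11.1, STAR 2.7.3a and Trimmomatic 0.38 and give them no role. Not given in the sources used here were genome build, annotation, strand setting and the counting of reads matching several copies. In 35 of 11312 copies, none of them members, 1 count held text in place of digits, and these copies were left out (1 belonged to a list).

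Members and lists were chosen with earlier results of these data known. The test was edgeR 4.0.16 (R 4.3.3) with filterByExpr, TMM scaling and a robust quasi-likelihood model of the 12 libraries, 4 group means and 8 residual degrees of freedom, for 10659 copies and separately for 6197 symbols summed over copies, which have their own scaling. Benjamini-Hochberg adjustment ran over all features, with calls at 0.05, and the SE came from the F statistic. Copies were set against their symbol with diffSpliceDGE. The steps were run on simulated counts of independent libraries, which does not test shared reads or deviating libraries. CPM are TMM-scaled. No replicates were duplicates: chi-square per degree of freedom was 8.03 to 114. Beyond the members, the text names part of a rule: per list and comparison up to 3 called copies with the largest change and at least 10 CPM, and the 3 symbols most like each member. GAT1_2 and HAP5_2 were added after their values were seen. Alternatives were other scalings, other filters, DESeq2 1.42.0, only the libraries compared, a replicate block, 790 in place of the text, and each library or both deviating libraries left out.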

Additional observations from a re-analysis of the deposited data

Results flagged for a closer look

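For 3 of the 5 genes the change from day 2 to day 5 differed between the strains by the test of that difference itself (edgeR's quasi-likelihood test, adjusted over all features). The same test called 28.2 percent of all 6197 symbols and 26.4 percent of all 10659 copies. For GDH1 the difference, SpIB2 minus SpIB1 on the log2 scale, was -2.07 for GDH1_1, -2.86 for GDH1_2 and -2.33 for the sum of both copies. For GDH3 it was 3.08 for GDH3_1, 2.23 for GDH3_2 and 2.76 for the sum. For GLN1 it was -2.31 for GLN1_1, -2.78 for GLN1_2 and -2.61 for the sum. The GDH1 differences lost their call without any 1 of several libraries and without both libraries that stood apart (-1.44, -1.41 and -1.48), while the GDH3 and GLN1 differences passed there. The part of these libraries in the results was not tested further.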

How the results depend on the processing

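Of 2162 values of single genes under the alternatives, 1967 kept direction and side of the threshold, 117 lost their call, 24 gained one and 54 turned sign. All 54 were values that had not passed. The cause was not tested. Putting 790 in place of the unreadable text, median-ratio size factors, no expression filter and a mean count of at least 50 moved none of the counts below by over 1.5 times. Depth limits GDH2_2, whose SpIB1 counts were 0, to a lower bound. Fits with 1 library left out share the spread of all groups.

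The day change in SpIB1 depended most on the settings. The count of copies, 370, was 2204 in a fit of only the 6 libraries compared, 1759 without SpIB2 day 2 replicate 3 and SpIB2 day 5 replicate 1 together, 1123 with DESeq2 and 87 to 282 with each library left out. Symbols, 243, were 1314, 1074, 725 and 56 to 163 in the same order. Member copies, 0, were 2, 2, 2 and 1 with library totals without TMM (0 with each library left out), and member symbols, 0, were 1, 2, 2 and 1. Copies of the lists, 5, were 19, 17, 13, 8 with library totals and 3 with each library left out. In fits of only the libraries compared, the SpIB2 day change had 2591 copies (4833 before), 1575 symbols (2894), 30 list copies (54) and 0 copies against their symbol (1). Symbols on day 2, 1734, were 2911 without both deviating libraries and 807 to 1850 with each library left out, copies there, 3762, were 5329 and 2334 to 3871, member symbols, 2, were 1 to 2, and list copies, 45, were 28 to 49. On day 5 member copies, 8, were 4 to 7 with each library left out, and copies against their symbol, 1, were 2 without both deviating libraries and 1 to 2 with each left out. For the difference of the day changes, copies, 2819, were 1614 to 3262, symbols, 1747, were 1081 to 2017, and list copies, 31, were 15 to 36 with each library left out, 40 without both deviating libraries, 55 with library totals and 48 with DESeq2. With library totals the split of all copies, higher and lower, went from 3191 and 2824 to 1502 and 4863 on day 5, from 2325 and 2508 to 1311 and 3611 for the SpIB2 day change, from 1554 and 1265 to 692 and 2858 for the difference of the day changes, from 2055 and 1707 to 1452 and 1646 on day 2 and from 92 and 278 to 155 and 148 for the SpIB1 day change.

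Over all comparisons, replicate numbers did not consistently pair the libraries. The deviations of same-numbered libraries correlated at -0.55 to 0.46, above 0.1 in 3 of 12 pairs, and 9 of 36 best matches carried the same number. Between the days these correlations were 0.46, 0.02 and 0.37 in SpIB1 and -0.39, -0.31 and -0.03 in SpIB2. Whether the SpIB1 libraries of both days came in pairs cannot be told from these values. With the replicate number as a block the SpIB1 day change had 206 copies, 102 symbols and 3 list copies, the difference of the day changes had 20 list copies, and the calls of GLT1_2 (1.41, adjusted p = 0.0528) and GLN1_2 (-0.89, adjusted p = 0.0632) on day 5 and of GDH1_1 (-2.24), GDH1_2 (-2.90) and the GDH1 sum (-2.50) in the difference of the day changes were not made.

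The values that turned sign follow, each after its reported value.

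For the strain difference on day 2, GDH1_1 (-0.23) was -0.55 to 0.056 with each library left out. GDH1_2 (0.52) was -0.68 without both deviating libraries and -0.68 to 0.89 with each library left out. GDH1 summed (-0.03) was 0.0016 with median-ratio size factors or DESeq2, 0.020 with the replicate block and -0.58 to 0.27 with each library left out. GDH2 summed (-0.14) was 0.066 without both deviating libraries and -0.28 to 0.049 with each library left out.

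For the strain difference on day 5, GDH2_1 (0.20) was -0.66 with library totals, -0.11 without both deviating libraries and -0.11 to 0.50 with each library left out. GDH2 summed (0.65) was -0.15 with library totals. GLT1 summed (0.43) was -0.41 with library totals, -0.15 without both deviating libraries and -0.15 to 0.72 with each library left out.

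For the day change in SpIB1, GDH1_1 (0.35) was -0.15 to 0.63 with each library left out. GDH1_2 (-0.17) was 0.090 with library totals and -0.96 to 0.20 with each library left out. GDH2_1 (-0.15) was 0.13 with library totals and -0.23 to 0.046 with each library left out. GLT1_1 (-0.03) was 0.23 with library totals and -0.13 to 0.14 with each library left out. GDH1 summed (0.26) was -0.27 to 0.56 with each library left out. GDH2 summed (-0.15) was 0.13 with library totals and -0.22 to 0.060 with each library left out.

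For the day change in SpIB2, GDH2_2 (0.33) was -0.26 with library totals, -0.16 without both deviating libraries and -0.22 to 0.67 with each library left out. GLT1_2 (0.71) was -0.11 to 1.24 with each library left out. GLT1 summed (0.18) was -0.34 with library totals, -0.06 without both deviating libraries and -0.40 to 0.51 with each library left out.

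For the difference of the day changes, GLT1_2 (0.27) was -0.65 with library totals, -0.03 without both deviating libraries and -0.57 to 0.79 with each library left out. GLT1 summed (0.05) was -0.73 with library totals, -0.21 without both deviating libraries and -0.52 to 0.38 with each library left out.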
